A study of Mus musculus with 8 samples.

Results

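Gastrin and 9 other precursors of neuropeptides and gut peptides were followed in pancreatic islets of mice that lacked Irs2 or were wild type, with and without oral sodium tungstate. The genes were Gast, Cck, Nmb, Grp, Tac1, Pdyn, Cartpt, Vgf, Spx and Npy, 10 of the 18193 genes that have a probe set naming a single gene on the array. They were picked by name, from a list drawn up with the values of these arrays in view, chiefly the difference between genotypes in untreated mice and the change with tungstate in Irs2-/- islets. Those differences are therefore given as a description, with no test. Each gene was read from 1 probe set, chosen for its highest mean level, and Tac1 alone had a second one.

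The mice were male C57Bl/6 and 13 weeks old at the end. The 4 groups were Irs2 knockout (Irs2-/-) mice given sodium tungstate in distilled drinking water for 21 days, Irs2-/- mice given plain distilled water, wild-type (WT) mice given tungstate, and WT mice given plain water, with 2 arrays each. Irs2 carries signals from the receptors of insulin and IGF-1 into the cell, and its loss in mice leads to too few beta cells and to diabetes. Tungstate is a salt studied for its glucose-lowering effect. Its concentration is 2 mg/ml in the study's design text and 2 mg/dl in the sample labels, so the dose is not settled. The labels give neither the knockout construct nor the number of mice behind a sample, so p-values measure only the spread between samples, which may be technical. Expression is on the log2 scale after robust multi-array averaging (RMA). A level can be compared between arrays for the same gene, but not between genes.

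Irs2 read 4.78 and 4.86 in treated and 4.54 and 4.89 in untreated Irs2-/- islets, against 7.89 and 7.61 in treated and 7.91 and 7.73 in untreated WT islets. All 8 arrays thus followed their genotype labels, while the treatment labels were not checked by it. The tissue label fitted the endocrine markers: Ins2, Gcg, Ppy, Iapp and Chga read 13.98 or more on all arrays. The 7 endocrine markers averaged 13.12 to 13.26 in Irs2-/- and 13.42 to 13.52 in WT islets. Sst and Hhex of this list were lower in Irs2-/- islets without overlap. Sst read 12.44 to 12.88 there and 13.93 to 14.02 in WT islets, and Hhex 7.40 to 7.65 and 7.93 to 8.36. Markers of other cells varied between and within groups, and are given beside the results they moved with.

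Neuropeptides and gut hormones are made as long precursors that enter the secretory pathway. Prohormone convertases cut them at paired basic residues, carboxypeptidase E trims the ends, and many are then amidated, which gastrin, cholecystokinin, substance P, neuromedin B and neuropeptide Y need for activity. Gastrin belongs to the stomach of adult rodents but is made by islets before birth, and several of the other peptides are known from nerves that reach the pancreas as well as from islet cells. RNA came from whole islets, so more cells of a type and more RNA per cell cannot be told apart.

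Gast, which encodes the acid-stimulating hormone gastrin, was near the bottom of the scale in WT islets and high without Irs2. It read 7.85 and 7.76 in treated and 10.00 and 10.26 in untreated Irs2-/- islets, against 4.60 and 4.72 in treated and 4.53 and 4.69 in untreated WT islets. The 3 levels did not overlap: untreated Irs2-/- arrays were highest, treated Irs2-/- arrays lay between, and the 4 WT arrays were together. Untreated Irs2-/- islets were 45.7-fold above untreated WT islets (log2 5.52 ± 0.13, SE), and treated Irs2-/- islets were 4.99-fold below untreated ones (-2.32 ± 0.13). These SEs rest on 2 arrays per group and a spread pooled over all groups by limma. WT values lay under 5.27, the mean below which genes were left out of the tests, so the folds against WT are not exact sizes.

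Cck encodes cholecystokinin, a gut and brain peptide that shares its active end with gastrin. It read 5.21 and 5.21 in treated and 5.81 and 6.49 in untreated Irs2-/- islets, against 4.70 and 4.75 in treated and 4.79 and 4.82 in untreated WT islets. Its groups stood in the order seen for Gast among Irs2-/- islets, on a smaller scale: 2.54-fold above WT without treatment (1.35 ± 0.19), and 1.92-fold below the untreated level with tungstate (-0.94 ± 0.19). Its mean of 5.22 was under the limit for testing, so it entered no test.

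Nmb and Grp encode the mammalian relatives of the frog peptide bombesin, neuromedin B and gastrin-releasing peptide, the second of which stimulates gastrin and insulin release. Nmb read 5.71 and 5.75 in treated and 7.54 and 7.75 in untreated Irs2-/- islets, against 5.74 and 5.64 in treated and 5.66 and 5.37 in untreated WT islets. Only the untreated Irs2-/- arrays stood out, by 2.13 ± 0.14 over untreated WT islets, and the treated ones were 1.92 ± 0.14 lower, overlapping treated WT islets. Grp read 8.50 and 8.02 in treated and 7.68 and 8.36 in untreated Irs2-/- islets, against 5.72 and 4.60 in treated and 5.49 and 4.00 in untreated WT islets. Both Irs2-/- groups lay above all WT arrays and overlapped each other, with a tungstate difference of 0.23 ± 0.52. The 2 bombesin-family genes thus stood apart in treated Irs2-/- islets, where Nmb was at the WT level and Grp was not.

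Tac1 encodes substance P and neurokinin A, peptides of sensory and enteric nerves. It read 10.13 and 9.58 in treated and 8.01 and 9.52 in untreated Irs2-/- islets, against 6.56 and 6.60 in treated and 6.19 and 5.42 in untreated WT islets. It was the member whose treated Irs2-/- arrays both lay above the untreated ones (1.09 ± 0.46). That difference was 0.34 without untreated Irs2-/- replicate 1 and 1.85 without replicate 2. The other Tac1 probe set read between 4.30 and 4.65 on all arrays and showed no such pattern.

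Pdyn encodes the dynorphins, which act on the kappa opioid receptor. It read 10.66 and 9.82 in treated and 10.94 and 10.53 in untreated Irs2-/- islets, against 8.23 and 7.92 in treated and 7.74 and 8.29 in untreated WT islets. Both Irs2-/- groups were above all WT arrays and overlapped each other. The tungstate difference in Irs2-/- islets was -0.49 ± 0.30.

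Cartpt encodes CART, a peptide of brain, gut and islet cells in rodents. It read 9.91 and 8.56 in treated and 9.02 and 9.22 in untreated Irs2-/- islets, against 6.21 and 5.95 in treated and 6.09 and 5.44 in untreated WT islets. Like Grp and Pdyn, it was high in both Irs2-/- groups, with a tungstate difference of 0.11 ± 0.40 whose sign turned (-0.56) without treated Irs2-/- replicate 1.

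Vgf encodes a granin-like precursor first found as a target of nerve growth factor. It read 9.77 and 9.33 in treated and 10.87 and 10.87 in untreated Irs2-/- islets, against 7.58 and 7.75 in treated and 7.60 and 7.68 in untreated WT islets. Its 3 levels followed those of Gast, with untreated Irs2-/- islets 9.41-fold above WT (3.23 ± 0.16) and treated ones 2.50-fold below untreated ones (-1.32 ± 0.16).

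Spx encodes spexin, a ligand of the galanin receptors 2 and 3. It read 5.64 and 5.00 in treated and 7.16 and 8.15 in untreated Irs2-/- islets, against 4.38 and 4.69 in treated and 4.35 and 4.58 in untreated WT islets. Treated Irs2-/- arrays again lay between the untreated ones and WT (tungstate difference -2.33 ± 0.33), closer to WT.

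Npy encodes neuropeptide Y, a peptide of sympathetic nerves that lowers insulin release. It read 10.07 and 9.26 in treated and 8.68 and 9.49 in untreated Irs2-/- islets, against 9.46 and 7.49 in treated and 8.08 and 7.73 in untreated WT islets. Among the members it had the smallest difference between untreated genotypes (1.18 ± 0.59), and treated WT replicate 1 lay inside the Irs2-/- range.

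**Figure D1:**
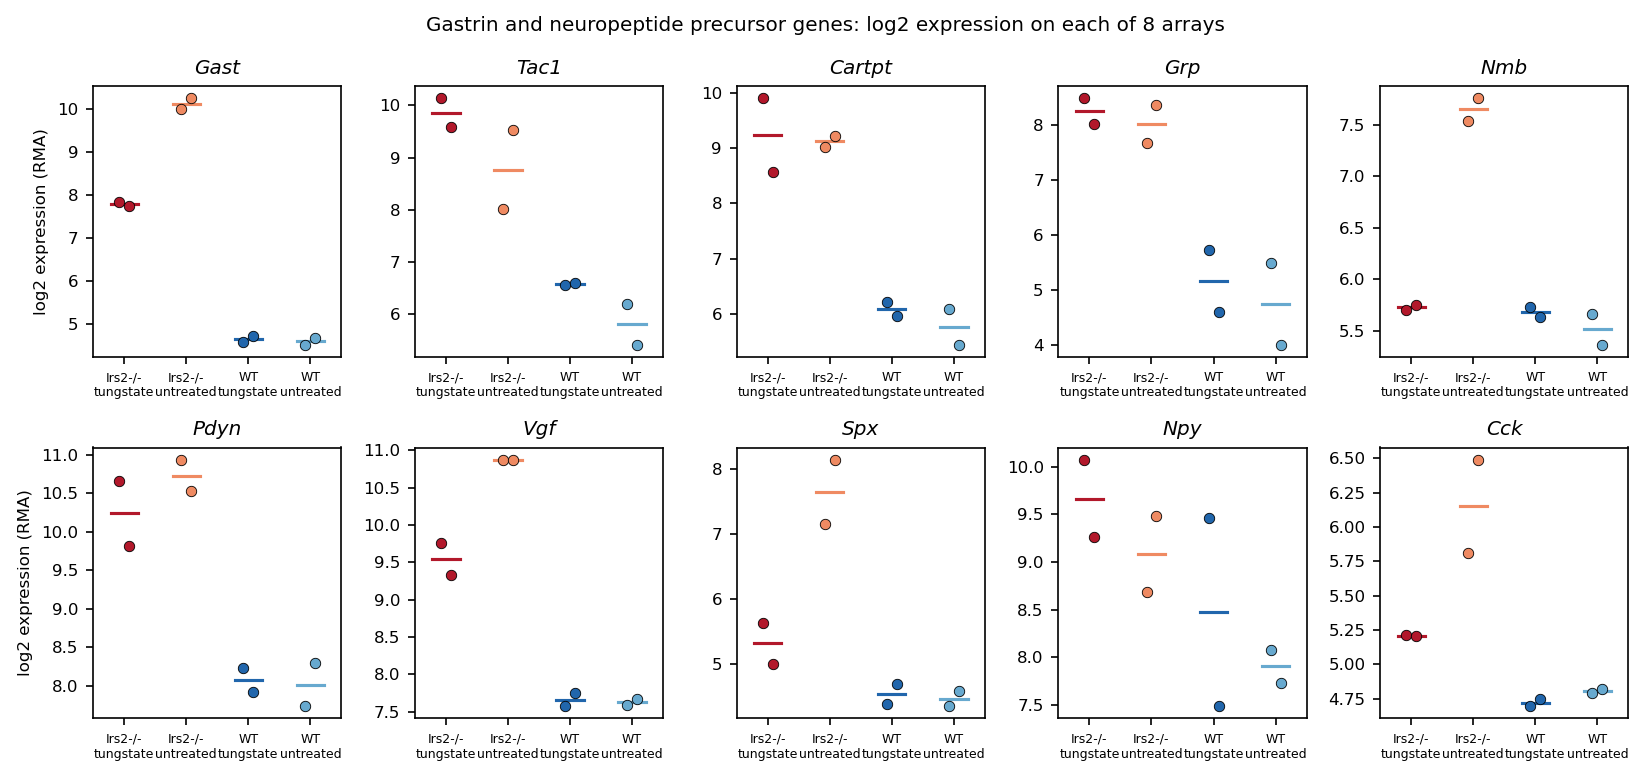
Log2 expression (RMA, vertical axes, 1 scale per gene) of the 10 precursor genes in each group; points are single arrays and bars the mean of 2. Gast, Nmb, Vgf, Spx and Cck were lower in treated than in untreated Irs2-/- islets with no overlap, while Tac1, Cartpt, Grp, Pdyn and Npy stayed high there; all 10 were higher in untreated Irs2-/- than in untreated WT islets.

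Between untreated genotypes, 10 of 10 members were higher in both Irs2-/- arrays than in both WT arrays. Of all 18193 genes 28% were, a share from which nothing is read because this contrast chose the members. The median member difference was 3.07, against 0.0063 over all genes. With tungstate in Irs2-/- islets, 5 of 10 members (Gast, Nmb, Vgf, Spx and Cck) were lower without overlap, as were 20.1% of all genes, and 1 (Tac1) was higher, as were 18.9%. Their median was -0.72, against 0.0089 over all genes. The 5 others (Tac1, Cartpt, Grp, Pdyn and Npy) differed by -0.49 to 1.09. This split into 2 groups was made after the values were seen and has no test.

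The tungstate difference in Irs2-/- minus that in WT islets, again as a description, was -2.37 ± 0.19 for Gast, -2.09 ± 0.20 for Nmb, -2.40 ± 0.46 for Spx, -1.35 ± 0.22 for Vgf and -0.86 ± 0.27 for Cck. For the remaining members it lay between -0.55 ± 0.43 (Pdyn) and 0.32 ± 0.65 (Tac1). Set against its size without treatment, the log2 difference between genotypes under tungstate was 1.93% for Nmb, 24.6% for Spx, 36.3% for Cck, 57.1% for Gast and 58.3% for Vgf. For Pdyn it was 79.6%, for Cartpt 93.9%, for Grp 94.5%, for Npy 101% and for Tac1 111%. Nmb was thus alone at the WT level. Against untreated WT islets, all 10 members were higher without overlap in treated Irs2-/- islets, by 0.21 to 4.05, and 22.8% of all genes were higher.

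Tungstate in WT islets was tested for the 8 members other than Gast, which had been named for this contrast, and Cck. None passed limma's test (adjusted p = 1.0 for each). Nor did any of the 13369 genes tested (0%). Of these members, Grp and Spx had WT means under 5.27, the limit for testing, and passed it only through their Irs2-/- arrays. A change in WT islets may not show so low on the scale, so nothing is concluded from their results in this test. Differences ran from 0.03 ± 0.16 for Vgf to 0.77 ± 0.46 for Tac1, whose arrays did not overlap, and 18.5% of all genes were higher without overlap. The 95% intervals were narrow for Vgf (-0.33 to 0.39) and Nmb (-0.15 to 0.49) and wide for Npy (-0.79 to 1.94), Tac1 (-0.29 to 1.83) and Grp (-0.79 to 1.62). Changes of Npy, Tac1 and Grp within these intervals were not detectable with 2 arrays per group. Gast differed by 0.05 ± 0.13 and Cck by -0.08 ± 0.19.

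The genotypes under tungstate were also compared by limma. This difference is the untreated genotype difference plus the gap in tungstate response between genotypes. Both were in view when the members were chosen, so the differences and counts below describe the members, with no p and no conclusion. Gast, Grp and Spx had WT means under the filter and passed it through their Irs2-/- arrays. For these genes the filter also favoured a difference. Gast was 8.86-fold higher in treated Irs2-/- than in treated WT islets (3.15 ± 0.13), Grp 8.56-fold (3.10 ± 0.52) and Spx 1.72-fold (0.78 ± 0.33). Treated Irs2-/- arrays were higher without overlap for 8 of all 10 members, against 22.1% of all genes. Nothing is read from that share, since the parts of this contrast chose the members.

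Vgf was 3.69-fold higher in treated Irs2-/- than in treated WT islets (1.88 ± 0.16). Cartpt was higher by 3.15 ± 0.40, Tac1 by 3.28 ± 0.46 and Pdyn by 2.16 ± 0.30. Nmb differed by 0.04 ± 0.14 between treated genotypes, with a 95% interval of -0.28 to 0.36. Npy was at 1.19 ± 0.59, with overlapping arrays.

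None of these 4 calls held without either treated WT array (limma adjusted p up to 0.251, for Tac1), and those of Tac1 and Pdyn were also lost without treated Irs2-/- replicate 1. Over all genes the count was 3 without treated WT replicate 1 and 4 without replicate 2, against 137 with all arrays.

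**Figure D2:**
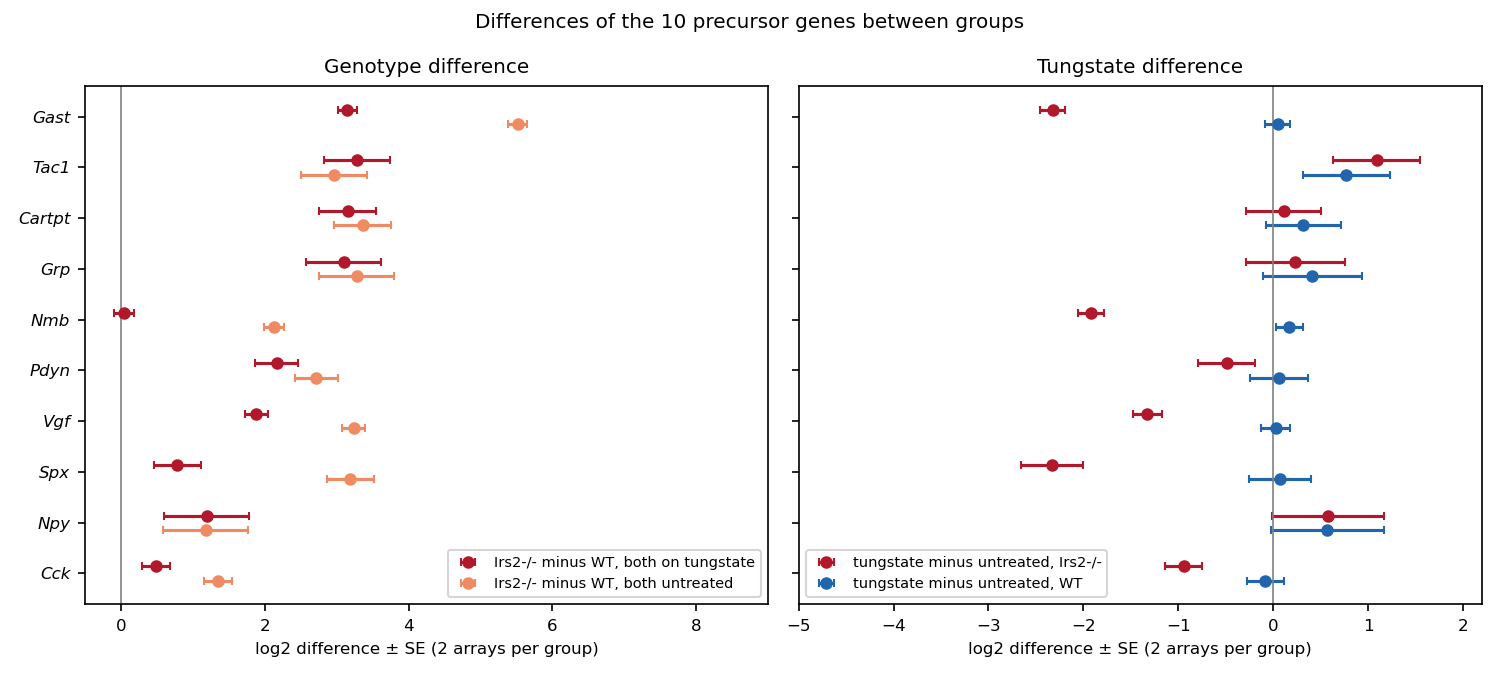
Log2 differences ± SE (horizontal axes, 2 arrays per group) of each member, on the left between genotypes under tungstate and without it, and on the right between tungstate and plain water in Irs2-/- and in WT islets. Points of Tac1, Cartpt, Grp and Npy lie close together in the left panel, while those of Gast, Nmb, Vgf, Spx and Cck are apart; in the right panel all WT points lie between -0.08 and 0.77.

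Across the 8 arrays Gast and Vgf had a Pearson r of 0.997, Spx and Cck 0.983, and Cartpt and Grp 0.972. Nmb and Npy were the least alike (0.289), and Nmb and Tac1 had 0.428. These values are descriptions: the arrays share 4 groups, and the distances between groups set most of r. Among 223 other tested genes that varied by an SD of 1 or more, those most like Gast were Tmem212 (r = 0.996), Ttyh1 (0.994), Pon3 (0.990), the casein gene Csn3 (0.987) and Krtap17-1 (0.985). Those most like the mean profile of the 9 tested members were 6330403K07Rik (0.987), the glutamine transporter gene Slc38a5 (0.982), C1qtnf1 (0.981), Retreg1 (0.977) and Tmem212 (0.976).

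Promoter sequence was available from RefSeq (GRCm38.p6) for 8 of the 10 members, and the 250 bases before the annotated start are shown for 4 of them. Gast and Nmb are examples of the members that were lower with tungstate in Irs2-/- islets, and Cartpt and Tac1 of those that stayed high. They do not stand for their groups in the TGACG core. Among members not shown, Spx and Cck, lower with tungstate, had a core, and Pdyn and Npy, which stayed high, had none. Capitals mark the TATA box TATAAA, the GC box GGGCGG, the cyclic AMP response element (CRE) TGACGTCA and its shorter core TGACG, each searched on both strands, and a full CRE holds a core on either strand. Gast is at chr11:100334157-100334406 on the plus strand, Nmb at chr7:80905063-80905312 on the minus strand, Cartpt at chr13:99900684-99900933 on the minus strand and Tac1 at chr6:7554811-7555060 on the plus strand.
Gast: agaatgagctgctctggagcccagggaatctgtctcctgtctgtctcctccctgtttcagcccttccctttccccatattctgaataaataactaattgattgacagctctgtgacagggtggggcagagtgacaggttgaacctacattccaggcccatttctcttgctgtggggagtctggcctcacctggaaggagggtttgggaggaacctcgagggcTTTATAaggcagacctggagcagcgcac
Nmb: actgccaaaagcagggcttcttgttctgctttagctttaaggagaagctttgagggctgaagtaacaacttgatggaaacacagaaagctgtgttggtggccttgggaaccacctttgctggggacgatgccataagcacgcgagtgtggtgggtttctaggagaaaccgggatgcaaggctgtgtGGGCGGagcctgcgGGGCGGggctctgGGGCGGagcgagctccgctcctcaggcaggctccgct
Cartpt: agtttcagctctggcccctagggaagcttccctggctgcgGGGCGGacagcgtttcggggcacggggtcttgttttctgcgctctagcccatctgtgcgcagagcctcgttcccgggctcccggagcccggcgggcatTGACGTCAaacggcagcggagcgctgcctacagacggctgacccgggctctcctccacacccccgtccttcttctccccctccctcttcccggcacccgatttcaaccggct
Tac1: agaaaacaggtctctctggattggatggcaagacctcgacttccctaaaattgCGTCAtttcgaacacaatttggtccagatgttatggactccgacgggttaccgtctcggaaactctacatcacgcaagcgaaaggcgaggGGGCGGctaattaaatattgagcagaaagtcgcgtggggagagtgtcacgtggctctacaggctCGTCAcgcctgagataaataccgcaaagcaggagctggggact

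The Gast window matched TATAAA on the minus strand, from base -28 to -23, as 12.4% of all 32851 RefSeq promoter windows did on either strand. The plus strand reads TTTATAAGG there, so the match does not settle the direction of a TATA box. Nmb had 3 GC boxes between bases -64 and -32, and 32.7% of windows had at least 1. A full CRE stood in the Cartpt window at -112 to -105 and in 1.55% of all windows. Tac1 had 2 cores, as 17.8% of windows had at least 1, and Spx and Cck had 1 each in a window. Gast, Nmb, Pdyn and Npy had no core. Genes with a core thus stood both among the members lower with tungstate and among those that stayed high. The AP-1 site TGACTCA (4.46% of windows) was in none of the 10 windows of the 8 genes. Such matches describe the letters of these windows and are not binding data. Cyclic AMP response element genes were on the list of regulators: Crem rose in untreated Irs2-/- islets against untreated WT islets (1.43 ± 0.33, limma adjusted p = 0.0265), and Creb1 fell (-0.50 ± 0.14, adjusted p = 0.0420). Leaving out 1 array ended both calls in some fits, with Crem between 1.31 and 1.55 and Creb1 between -0.66 and -0.34. These included fits without a treated WT array, outside this contrast, where the difference stayed and only the spread estimate changed.

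Of 18 receptors for the members' peptides with a probe set, 9 passed the filter. Of these, 0 passed limma's test in untreated Irs2-/- against untreated WT islets, and 0 with tungstate in Irs2-/- islets. With the replicate number as a block the first count was 2, Cckar and C3ar1. All genes passed at rates of 16.8% and 0.494%. The gastrin and cholecystokinin receptor gene Cckbr read 5.58 and 6.07 in treated and 5.47 and 5.76 in untreated Irs2-/- islets, against 5.66 and 5.71 in treated and 5.72 and 5.59 in untreated WT islets, with all groups overlapping. Cckar, the cholecystokinin receptor that acinar cells also carry in mice, differed by 1.68 ± 0.67 between untreated genotypes (limma adjusted p = 0.121). C3ar1, reported as a receptor of a Vgf peptide in rodents, differed by 0.42 ± 0.13 (adjusted p = 0.0700).

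Of 15 tested genes for prohormone processing and granins, 5 rose and 1 fell in untreated Irs2-/- against untreated WT islets, as did 8.27% and 8.52% of all genes tested. Pcsk1, the convertase that starts the cutting, read 11.91 and 11.66 in Irs2-/- and 11.17 and 11.21 in WT islets (0.59 ± 0.14, limma adjusted p = 0.0257). Its inhibitor gene Pcsk1n read 11.29 and 11.15 in Irs2-/- and 11.79 and 11.69 in WT islets (-0.52 ± 0.13, adjusted p = 0.0305). Qpct, which forms the pyroglutamate end found on gastrin, rose by 1.16 ± 0.27 (limma adjusted p = 0.0274). Ctsl, a lysosomal protease also found in granules, rose by 0.64 ± 0.12, the granin gene Chgb by 0.57 ± 0.13 and Scg3 by 0.56 ± 0.14.

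Pam, the amidating enzyme gene, was at 0.77 and missed the threshold (limma adjusted p = 0.0557), and Cpe was at -0.10 (adjusted p = 0.590). The list's median was 0.18, against -0.01 over all genes tested. Fewer than the list's 6 calls remained without either untreated WT, either treated WT or either untreated Irs2-/- array, and more without either treated Irs2-/- array. Fewer also remained without the untreated replicates 1 of both genotypes. These fits leave 1 array in a group, so only the direction is given, and treated arrays enter only through the spread estimate. That pair was left out for its marker levels. For acinar markers only the WT array stood apart, at 8.92 against 11.75 in replicate 2. Untreated Irs2-/- replicate 1 (11.33) lay inside the Irs2-/- range. With tungstate in Irs2-/- islets 0 of 15 passed limma's test, beside 0.494% of all genes. Ctsl was at -0.52 ± 0.12 and Qpct at -0.89 ± 0.27.

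Among 26 other tested precursors of peptide hormones and neuropeptides, 3 rose and 3 fell between untreated genotypes, beside 8.27% and 8.52% of all genes tested. Vip, the vasoactive intestinal peptide of pancreatic nerves, read 10.23 and 11.19 in untreated Irs2-/- and 9.12 and 6.73 in untreated WT islets (2.78 ± 0.68, limma adjusted p = 0.0314). Gal, which encodes galanin, read 7.33 and 8.61 in untreated Irs2-/- and 5.52 and 6.70 in untreated WT islets (1.86 ± 0.46, adjusted p = 0.0319). Leaving out 1 array ended the calls of Vip and Gal in some fits. These included fits without a treated WT array, outside this contrast, where only the spread estimate changed. Vip differed by 1.59 without untreated WT replicate 2. Gal differed by 1.27 without untreated WT replicate 1 and by 1.22 without untreated Irs2-/- replicate 2. Nucb2, the precursor of nesfatin-1, rose by 1.36 ± 0.15 (limma adjusted p = 0.00269). Sst, Ucn3 and Edn3 fell by 1.35 ± 0.13, 2.07 ± 0.32 and 0.72 ± 0.20.

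Penk, the enkephalin precursor related to Pdyn, was at 0.35 and did not pass (limma adjusted p = 0.629), nor did Ghrl, the ghrelin gene (1.28, adjusted p = 0.0573). The median of the 26 was -0.0065. In all, 20 of the 26 did not pass. Fewer of the 6 calls remained without either treated WT array, which is outside this contrast, or without untreated Irs2-/- replicate 2. With tungstate in Irs2-/- islets 0 of 26 passed, beside 0.494% of all genes, and calls were gained without treated Irs2-/- replicate 1. Vip read 11.68 and 11.16 and Gal 8.00 and 7.91 in treated Irs2-/- islets, within or above the untreated range of each. Between treated genotypes, where 1.02% of all genes passed, Nucb2 was higher in Irs2-/- than in WT islets (0.88 ± 0.15, limma adjusted p = 0.0462) and Sst lower (-1.14 ± 0.13, adjusted p = 0.0199), but neither call held without either treated WT array or without treated Irs2-/- replicate 1, nor did that of Nucb2 without either untreated Irs2-/- array.

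**Figure D3:**
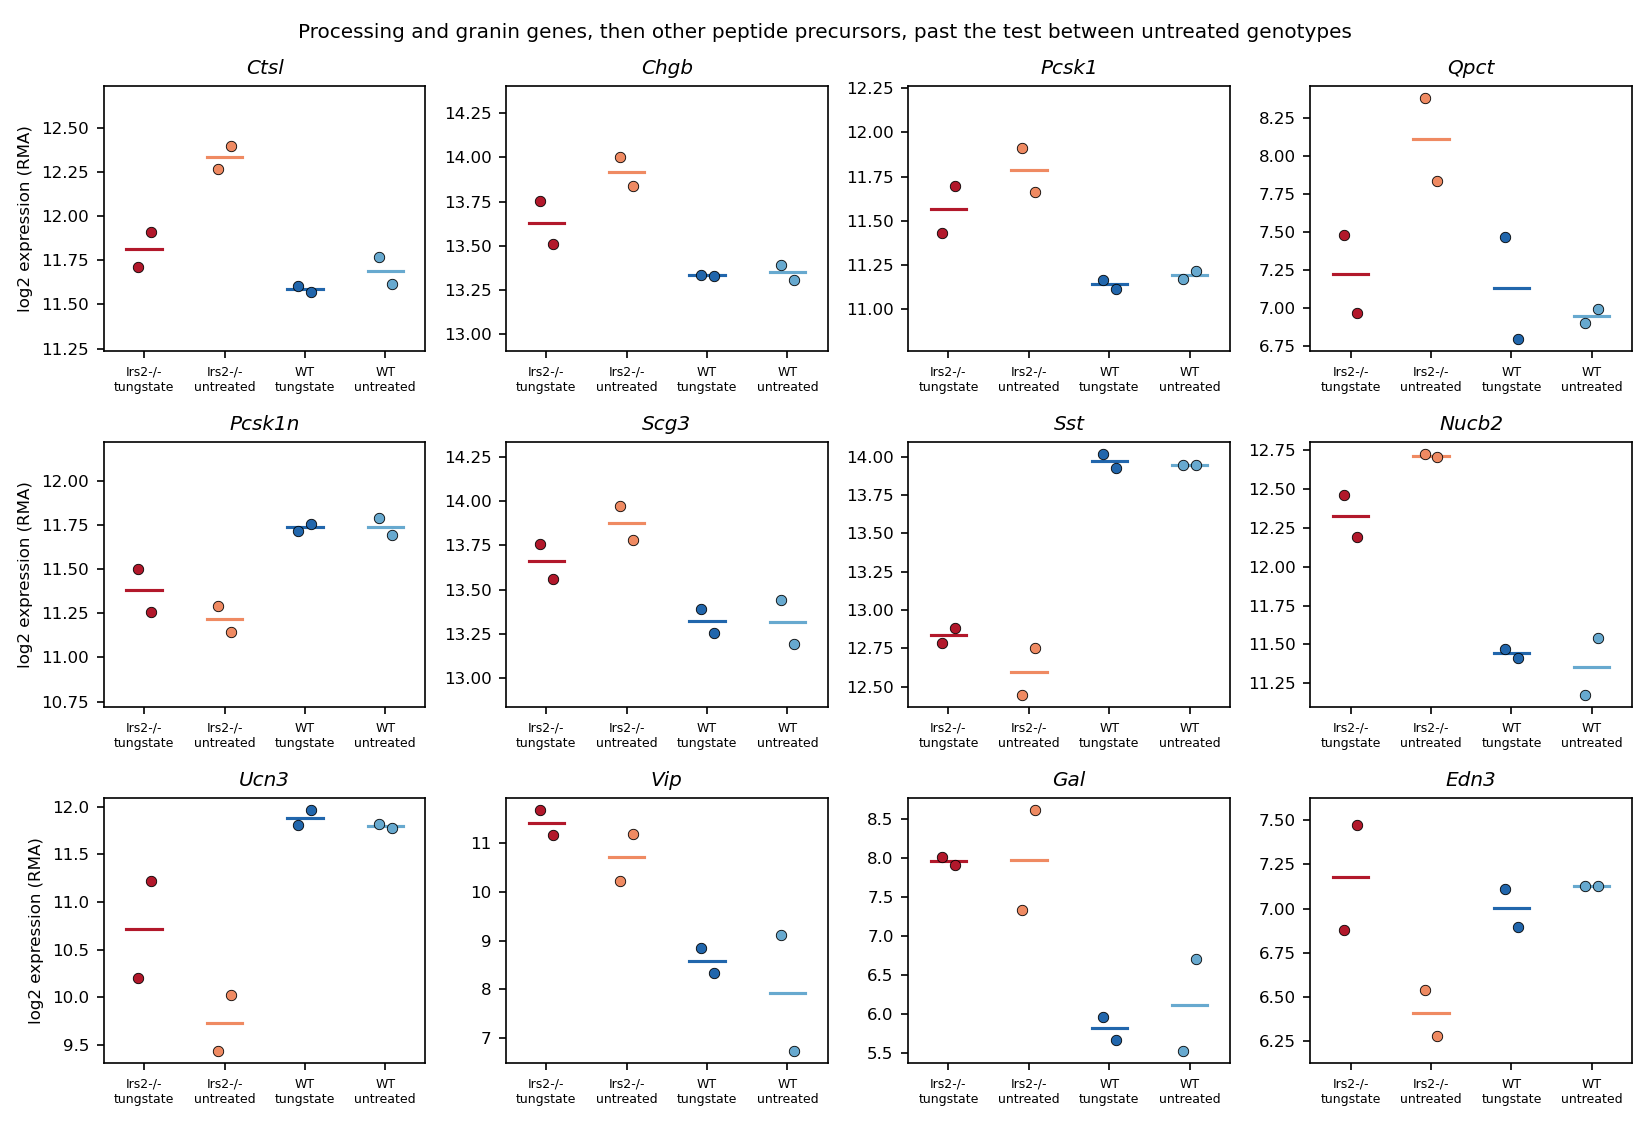
Log2 expression (RMA, vertical axes) in each group of the 6 processing and granin genes and the 6 other peptide precursors past limma's test between untreated genotypes; points are single arrays and bars the mean of 2. Vip and Gal stayed high in treated Irs2-/- islets, where Ctsl and Qpct lay below both untreated Irs2-/- arrays.

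Of 14 tested regulators of endocrine and gastrin genes, 5 fell and 1 rose between untreated genotypes, as did 8.52% and 8.27% of all genes tested. Beside Crem and Creb1, Nkx6-1 fell by 1.21 ± 0.19, Insm1 by 1.17 ± 0.25, Neurod1 by 0.87 ± 0.15 and Pdx1 by 0.74 ± 0.16 (limma adjusted p between 0.00823 and 0.0214). Rest, the repressor of neuronal genes, was at 0.51 (adjusted p = 0.263), and Men1, whose product menin represses gastrin, at 0.16 (adjusted p = 0.490). The count of 6 was 1 without untreated WT replicate 2, 2 without untreated WT replicate 1 or untreated Irs2-/- replicate 1, and 0 without the untreated replicates 1 of both genotypes. With tungstate in Irs2-/- islets 0 of 14 passed limma's test, beside 0.494% of all genes. A call was gained without treated Irs2-/- replicate 1 or untreated replicate 2.

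The mean of 10 macrophage markers was 7.60 and 7.73 in treated and 8.79 and 9.03 in untreated Irs2-/- islets, against 7.37 and 7.31 in treated and 7.49 and 7.27 in untreated WT islets. By limma all 10 rose between untreated genotypes, where 16.8% of all genes were called, and 6 fell with tungstate in Irs2-/- islets, where 0.494% were called. The 9 lymphocyte markers averaged 5.77 and 6.39 in treated and 7.88 and 7.08 in untreated Irs2-/- islets, against 6.03 and 5.30 in treated and 6.47 and 5.33 in untreated WT islets. Of these, 3 rose between untreated genotypes and 0 passed the test with tungstate in Irs2-/- islets. The part of both lists in the members' values was not tested.

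The mean levels of endothelial and duct markers did not overlap between genotypes. Between untreated genotypes 1 of 9 tested endothelial and 1 of 5 tested duct markers passed limma's test, beside 16.8% of all genes. Nothing is read from counts this small. The 10 endothelial markers averaged 7.77 to 8.27 in treated and 7.94 to 8.02 in untreated Irs2-/- islets, against 7.22 to 7.40 in treated and 7.44 to 7.45 in untreated WT islets. The 6 duct markers averaged 6.16 to 6.69 in treated and 6.27 to 6.30 in untreated Irs2-/- islets, against 5.91 to 5.93 in treated and 6.02 to 6.05 in untreated WT islets. The 14 acinar markers averaged 11.11 to 11.83 in treated and 11.33 to 12.14 in untreated Irs2-/- islets, against 10.29 to 10.32 in treated and 8.92 to 11.75 in untreated WT islets. For the 10 fibroblast and stellate cell markers the ranges were 7.57 to 8.17 in treated and 8.13 to 8.49 in untreated Irs2-/- islets, against 6.12 to 6.45 in treated and 6.87 to 8.04 in untreated WT islets. Their part was not tested either.

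The 9 neuron markers averaged 7.14 to 7.25 in treated and 7.13 to 7.24 in untreated Irs2-/- islets, against 6.89 to 7.11 in treated and 7.11 to 7.24 in untreated WT islets. Of them 0 passed limma's test between untreated genotypes, beside 16.8% of all genes. The 4 Schwann cell markers averaged 6.44 to 6.70 over all arrays, with S100b and Gfap at 5.29 or below. Of the 10 enteroendocrine and gastric markers, averaging 6.04 to 6.33, the stomach genes Gkn1 and Gkn2 read 5.48 or below and the incretin gene Gip 5.23 or below on all arrays. Tph1, which starts serotonin synthesis and was under the filter, read 4.49 and 4.46 in treated and 5.62 and 5.82 in untreated Irs2-/- islets, against 4.30 and 4.27 in treated and 4.26 and 4.31 in untreated WT islets, high in the untreated Irs2-/- arrays as Nmb was. Ghrl read 8.55 and 8.25 in treated and 7.38 and 8.34 in untreated Irs2-/- islets, against 7.17 and 6.36 in treated and 6.93 and 6.24 in untreated WT islets. In the same list Atp4a, of the acid pump, fell between untreated genotypes and Hdc, which makes histamine, rose.

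**Figure D4:**
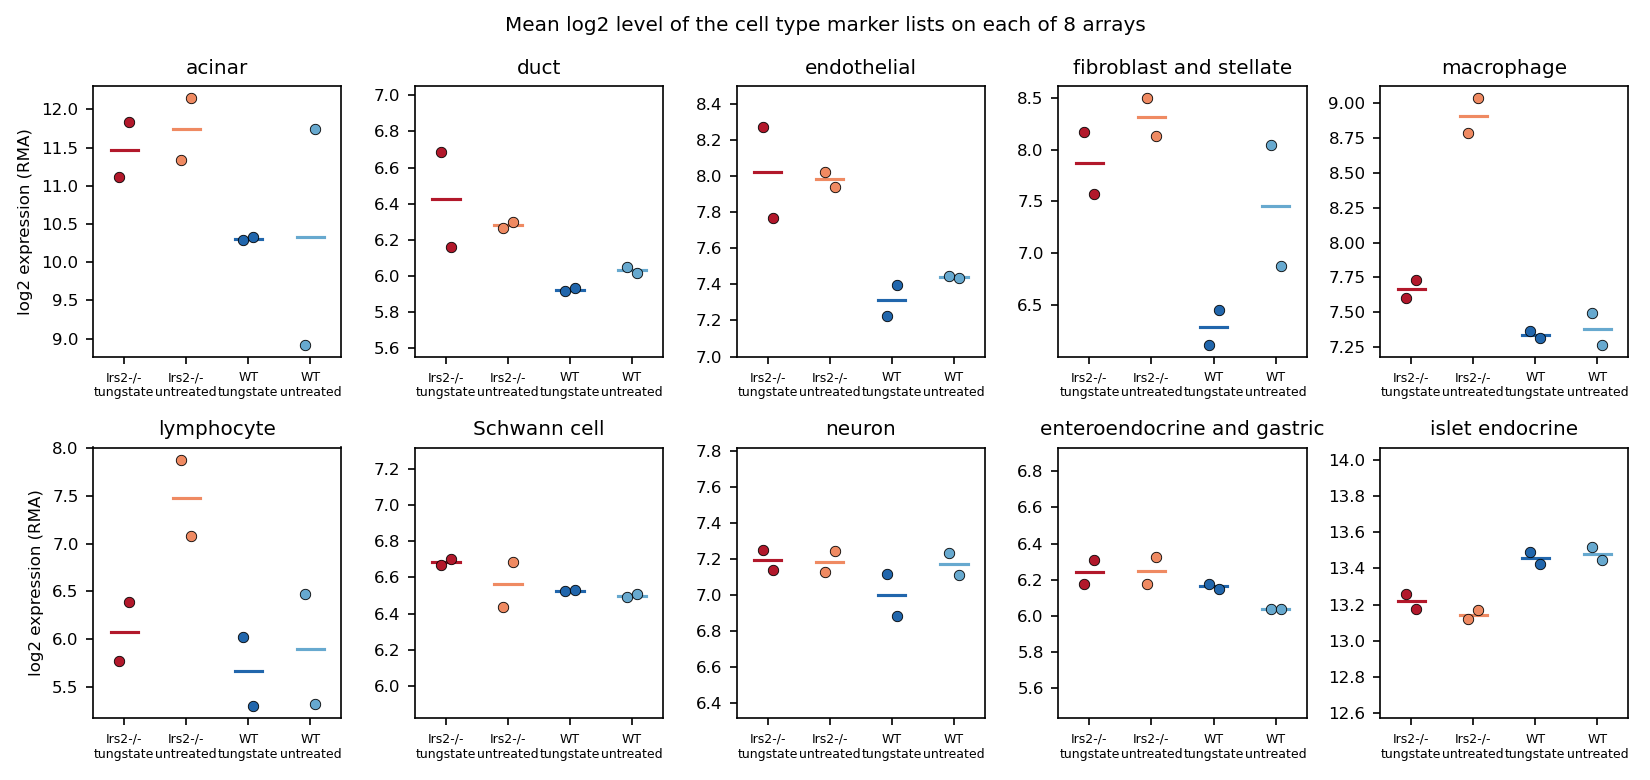
Mean log2 level (vertical axes) of each cell type marker list in each group; points are single arrays and bars the mean of 2. Macrophage markers were highest in untreated Irs2-/- islets, at 8.79 and 9.03, while neuron markers stayed between 6.89 and 7.25 on all arrays.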

How the data were processed

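RNA from islets was hybridised to 1 Affymetrix array per sample, 2 samples in each of 4 groups. The authors deposited log2 expression values made by RMA with the affy package in R 2.7.0, per the submitters' processing notes. RMA equalises the distributions of arrays, so a shift shared by most genes would not show. Genes were taken from the probe sets that GEO's annotation gives 1 symbol (34945 of 45037 besides controls), by the probe set with the highest mean. Genes with a mean of at least 5.27, the 40th percentile, were tested with limma 3.58.1 (R 4.3.3) on 4 group means with Benjamini-Hochberg adjustment over 13369 genes. The script was tested on simulated data. The median SE of a difference was 0.14, and precision is limited by how few arrays there are. The members and gene lists were chosen with earlier results of these data known. Named genes were Irs2, the members, up to 6 genes a list past the test by smallest p with up to 2 not past it, and the 5 genes most like Gast and like the mean member by Pearson r. Which genes not past the test to name was settled after their values were seen, and of the receptors 3 were named, as were single marker genes. Promoter windows came from RefSeq (GRCm38.p6). Replicate numbers were not taken to pair the samples, since same-numbered deviations correlated above 0.1 in 3 of 6 pairs of groups and not in the others. Alternatives changed the filter, normalization, probe sets, variance model, covariates, threshold and arrays used.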

Additional observations from a re-analysis of the deposited data

How the results depend on the processing

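With 2 arrays per group, the counts of calls moved both without single arrays and with some changes of the model. Leaving out 1 array also changes the spread estimate, so counts moved even where that array was outside the comparison. Dependence on a given array was not separated from this. Of 228 recomputed counts and medians of the members and lists, 206 stayed within the set tolerance and 22 did not. The median member difference lay between 2.79 and 3.35 (untreated genotypes) and between -0.93 and -0.51 (tungstate in Irs2-/- islets) when 1 array was left out. Without 1 array, the members called between treated genotypes (6) ran from 1 to 6. These 6 included Gast and Grp, for which the filter favoured a difference. Spx, which it favoured likewise, was not called. Nothing is concluded from this count, since the parts of the contrast chose the members. Without 1 array, processing genes between untreated genotypes (6) ran from 0 to 7, other precursors (6) from 3 to 6 and regulators (6) from 1 to 6. For tungstate in Irs2-/- islets, other precursors (0) and regulators (0) gained calls in some of the fits without 1 array. Among other settings, receptors called between untreated genotypes (0) were 2 with the replicate block and 1 at an adjusted p under 0.1. Processing genes (6) were 3 with the acinar level as a covariate. Fewer processing genes and fewer regulators were called without the untreated replicates 1 of both genotypes, which leaves 1 array in each of these groups. The causes were not tested.

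In WT islets, the small tungstate differences changed sign: Vgf was -0.0068 with median centring. Without the untreated replicates 1 of both genotypes Pdyn was -0.22, Vgf -0.015 and Spx -0.044. Without 1 array, Cartpt ran from -0.0054 to 0.64, Grp from -0.33 to 1.16, Pdyn from -0.22 to 0.34, Vgf from -0.059 to 0.11, Spx from -0.086 to 0.23 and Npy from -0.42 to 1.56. Nmb between treated genotypes ran from -0.0081 to 0.090. Tac1 was at 1.47 between untreated genotypes with the mean of its probe sets, against 2.96.

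Replicate numbers in the labels were not taken to pair the samples: same-numbered deviations from the group means correlated at -0.07 to 0.42 over 6 pairs of groups. The replicate block moved the receptor count above and no other list or member count past the set tolerance.

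Over all genes, calls between untreated genotypes (2245) were 1478 with the acinar covariate and 3511 at an adjusted p under 0.1. They were fewer without the untreated replicates 1 of both genotypes, and fewer or more without 1 array. For tungstate in Irs2-/- islets (66) they were 34 with a 60th percentile filter, 170 with the covariate, 153 at 0.1 and 19 with only the arrays compared. They were fewer without the untreated replicates 1 of both genotypes, and fewer or more without 1 array. Between treated genotypes (137) they were 279 with the covariate, 516 at 0.1, 77 with the mean of probe sets, 224 with the trend and 3 to 679 without 1 array. In WT islets (0) tungstate gave 6 with the covariate and 0 to 9 without 1 array.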
